A study of Mus musculus with 12 samples.

Results

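The genes of the proteasome and its regulators were taken as the entries whose symbol begins with Psma to Psmg and a number, without pseudogenes, and with a mean of at least 20 counts over 12 libraries. Of 25965 entries, 50 carried such a symbol, 1 was a pseudogene (Psme2b-ps), 1 fell below the minimum, and 48 were kept. The entry left out was Psmb11, the thymus form of a catalytic subunit, with a mean of 1.75 counts. The least abundant genes kept were Psmb8, Psmb9 and Psma8, with means of 57.9, 61.8 and 65.2 counts. All 48 passed the filter on low counts, so none is missing from the tests. Psmc3ip, a meiotic recombination factor, matched by name only and is no proteasome gene.

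The cells were lumbar lower motor neurons of C57BL/6 mice, collected by laser capture at an age of 5 months, and their RNA was sequenced. The groups were homozygotes and heterozygotes for the TDP-43 Q331K knock-in and wild type mice, with 4 libraries each. Q331K is an amino acid change, known from amyotrophic lateral sclerosis, in an RNA-binding protein encoded by Tardbp, and the change sits in the mouse's own gene. The labels name no animal for a library, so p-values measure the spread between libraries, which may be technical.

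The proteasome is the barrel-shaped protease that degrades proteins tagged with ubiquitin. Its core consists of outer alpha rings, which gate the entrance, and inner beta rings, which carry the protease sites. A cap made of a base with an ATPase ring and a lid recognises, unfolds and feeds in the substrate, and dedicated chaperones assemble both. Neurons do not divide and so cannot dilute damaged protein by division, and TDP-43 itself is among the proteins that the ubiquitin system is known to clear. Immune cells can replace the catalytic beta subunits by interferon-induced forms.

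Each library held between 60886825 and 83504446 counts, of which the 48 genes took 1.12 to 1.22%. Tardbp averaged 75.6 ± 2.17 CPM (the gene's count scaled to the library total) in homozygotes, 73.0 ± 5.48 CPM in heterozygotes and 73.7 ± 7.68 CPM in wild type (SD, n = 4 each), and a count per gene does not show a knock-in of 1 amino acid. Homozygote 1 and heterozygote 1 stood apart from the other 10 libraries in cell type markers. Their summed markers of inhibitory interneurons were 15.4 and 20.5 CPM, against 183 to 445 CPM elsewhere, and Gad2 was at 0 in both. The 7 motor neuron markers found in the table summed to 10941 and 11004 CPM there, against 4284 to 7852 CPM elsewhere, with 6 of 7 above the other libraries in both. Results are therefore given with and without these libraries. In such bulk samples, fewer cells of a type and less RNA per cell cannot be told apart.

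The constitutive core and cap groups had higher median levels than the regulators and immune forms. Levels were set between genes as CPM per kilobase of the principal transcript, averaged over the 12 libraries. Single genes overlapped, with the activator Psme3 at 68.9 CPM per kilobase above the lid gene Psmd11 at 50.3. The median was 353 for the 7 beta ring genes, 253 for the 6 cap ATPases, 226 for the 7 alpha ring genes, 163 for the 8 lid genes and 152 for the 3 other base genes. The 7 assembly factors had a median of 34.5 and the 4 activators one of 18.7 CPM per kilobase. Within a ring, CPM per kilobase also differed between subunits, as given below, and depended on the length taken for each gene.

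In the beta ring, Psmb6, the caspase-like catalytic subunit, had the highest level at 694 ± 68.6 CPM per kilobase (SD, n = 12), and Psmb7, the trypsin-like one, the lowest at 266 ± 24.4. Psmb5, the chymotrypsin-like catalytic subunit, lay between them at 353 ± 21.8. In the alpha ring Psma7 was highest at 532 ± 44.8 and Psma3 lowest at 107 ± 4.07 CPM per kilobase. The rank of Psma3 depends on its principal transcript of 2846 bases: not scaled for length, Psma4 was lowest, at 151 CPM against 305 CPM for Psma3. Psmc5 led the ATPases at 558 ± 45.3 and Psmc6 closed them at 93.2 ± 6.06. Of the base subunits outside the ATPase ring, the ubiquitin receptor Psmd4 had 258 ± 11.9 and the scaffold Psmd1 92.7 ± 9.41 CPM per kilobase. In the lid, levels ran from 50.3 ± 7.02 for Psmd11 to 233 ± 14.9 for Psmd6. Taking the merged exons of each gene as its length instead made Psmb1 the lowest of the beta ring, at 143 against 280 CPM per kilobase with the principal transcript.

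**Figure D1:**
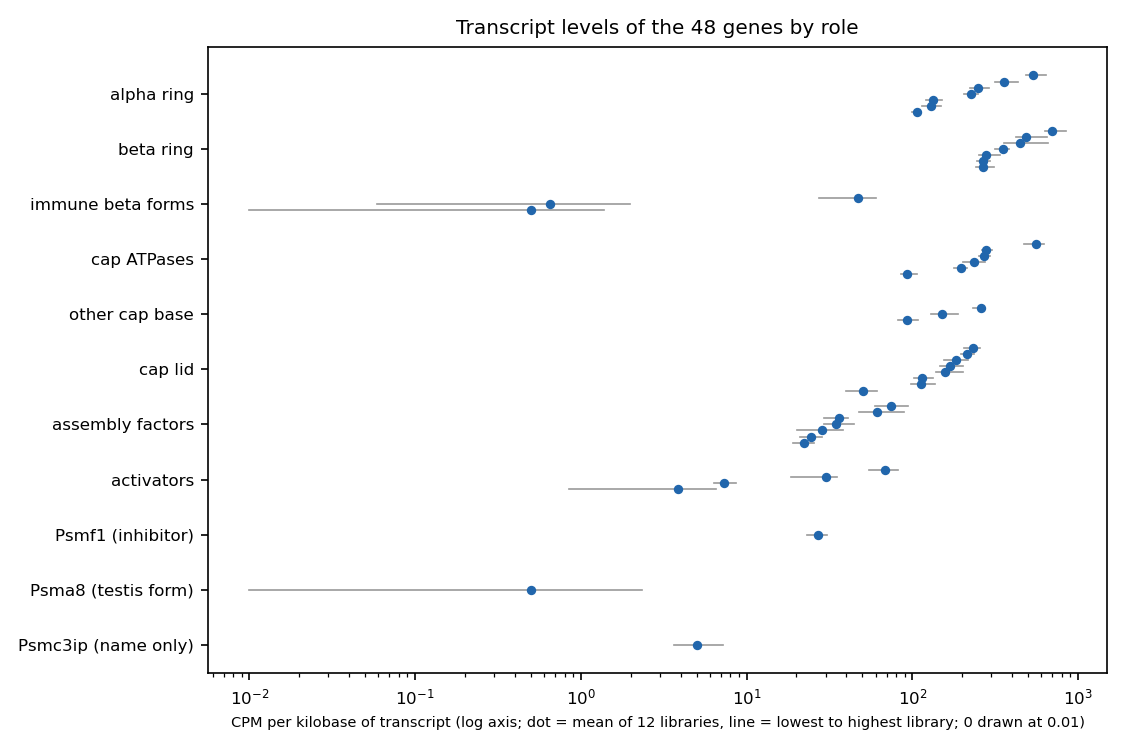
Mean level of each of the 48 genes over 12 libraries in CPM per kilobase of principal transcript, on a log axis, with a line from the lowest to the highest library. Beta ring, alpha ring and cap genes lie mostly to the right of the assembly factors and activators, with some overlap (Psmd11 at 50.3, Psmg3 at 73.9), and Psmb8, Psmb9 and Psma8 near 1 CPM per kilobase or below.

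No member passed the test in any comparison of genotypes. Between homozygotes and wild type, 0 of 48 had a Benjamini-Hochberg adjusted p below 0.05 by edgeR's quasi-likelihood test, where 0.00612% of the 16338 genes tested did. The count was 0 of 48 in heterozygotes against wild type, in homozygotes against heterozygotes and for any genotype difference, where 0% of all genes passed. At an unadjusted p below 0.05 there were 2 members in homozygotes against wild type (4.92% of all genes), 1 in heterozygotes against wild type (4.12%), 0 in homozygotes against heterozygotes (2.99%) and 0 for any difference (3.57%). These shares were no larger than the background. DESeq2 and limma-voom also called 0 members.

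The intervals show what sizes the data leave for the 31 core and cap genes. The fitted fold of homozygotes over wild type ran from 0.891 to 1.20, and the 95% intervals spanned 0.796 (Psmd2) to 1.54 (Psmb2). Heterozygotes over wild type gave folds of 0.899 to 1.17 with intervals between 0.783 (Psmd2) and 1.50 (Psmb2). Homozygotes over heterozygotes gave 0.916 to 1.07 with intervals between 0.780 (Psmd11) and 1.32 (Psmb2). A doubling or a halving of any single core or cap transcript lay outside these intervals.

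The members' fitted differences were small and mostly positive with all libraries, and in homozygotes this rested on homozygote 1. The log2 difference of homozygotes against wild type was above 0 for 34 of 48 members (49.4% of all genes), with a median of 0.04 beside 0.00 over all genes. Without homozygote 1 and heterozygote 1, 23 of 48 were above 0 and the median was -0.01. For heterozygotes against wild type 30 of 48 were above 0 (49.7% of all genes) with a median of 0.04, and 26 of 48 with a median of 0.03 without both. The comparisons share the wild type libraries, and members of 1 complex share libraries, so these counts are descriptions. Homozygotes against heterozygotes had 31 of 48 above 0 (49.8% of all genes), with a median of 0.01, and 21 of 48 with a median of -0.03 without both libraries.

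With all libraries, the beta ring had the largest median difference from wild type of the core and cap groups, within the spread of its libraries. All 7 beta ring genes had a fitted log2 difference above 0 in homozygotes (median 0.15) and in heterozygotes (median 0.13) against wild type. Without homozygote 1 and heterozygote 1 these were 5 of 7 with a median of 0.06 and 6 of 7 with a median of 0.09. The beta ring then no longer had the largest median in size. The cap ATPases had -0.08 in homozygotes and the other base genes -0.16 in heterozygotes. Summed beta ring CPM was 3390, 2511, 2740 and 2735 in homozygotes, 3142, 2682, 2689 and 2769 in heterozygotes and 2681, 2527, 2551 and 2521 in wild type. Homozygote 1 and heterozygote 1 were the highest, homozygote 2 was the lowest of all 12, and the 3 genotypes overlapped. The alpha ring sums overlapped likewise, from 2207 to 2605 CPM in homozygotes, 2174 to 2443 CPM in heterozygotes and 2163 to 2268 CPM in wild type. For the 14 core genes together, 14 were above 0 in homozygotes and 12 in heterozygotes against wild type, and 11 and 11 without both libraries.

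Psmb1, a structural beta subunit (chr17:15475721-15498276, minus strand, GRCm38), was the only member whose libraries lay above wild type in both mutant genotypes. It had 598, 463, 505 and 480 CPM in homozygotes, 545, 491, 491 and 501 CPM in heterozygotes and 446, 462, 463 and 455 CPM in wild type. The lowest homozygote library, at 462.94 CPM, cleared the highest wild type library, at 462.86 CPM, by less than 1 CPM, while the heterozygotes were clearly separate. Such a separation upward was seen in 1.29% of all genes in the homozygote comparison and in 1.48% in the heterozygote one, beside 1 of 48 members in each. The log2 difference was 0.16 ± 0.08 (SE) in homozygotes and 0.15 ± 0.08 in heterozygotes against wild type (edgeR adjusted p = 0.990 and 0.999). Without homozygote 1 and heterozygote 1 it was 0.08 and 0.12.

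Psmb5 (chr14:54614120-54617995, minus strand, GRCm38) was 1 of the 2 members with an unadjusted p below 0.05 in homozygotes against wild type. It had 343, 306, 336 and 339 CPM in homozygotes, 322, 335, 307 and 329 CPM in heterozygotes and 293, 283, 318 and 301 CPM in wild type. Wild type 3 lay above homozygote 2 and heterozygote 3, so the genotypes overlapped. The log2 difference was 0.15 ± 0.07 (SE) in homozygotes and 0.11 ± 0.07 in heterozygotes against wild type (edgeR adjusted p = 0.990 and 0.999), and 0.13 and 0.12 without the libraries that stood apart. Homozygote 1 was the highest of all 12 libraries, while heterozygote 1 lay within the range of the others.

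Psmb6 and Psmb2 were highest in homozygote 1 and heterozygote 1. Psmb6 had 676, 502, 574 and 544 CPM in homozygotes, 645, 538, 536 and 551 CPM in heterozygotes and 547, 507, 512 and 508 CPM in wild type. Psmb2, another structural beta subunit, had 567, 342, 369 and 362 CPM in homozygotes, 506, 338, 396 and 361 CPM in heterozygotes and 398, 338, 326 and 309 CPM in wild type. In both genes the remaining libraries of the 3 genotypes overlapped. Psmb7 overlapped too, at 314 ± 34.9 CPM in homozygotes, 307 ± 21.9 CPM in heterozygotes and 305 ± 34.4 CPM in wild type (SD, n = 4 each). Psma7, the most abundant alpha subunit per length, had 582, 484, 480 and 462 CPM in homozygotes, 545, 497, 463 and 502 CPM in heterozygotes and 443, 475, 454 and 452 CPM in wild type. Its log2 difference in homozygotes against wild type was 0.14 ± 0.08 (SE, edgeR adjusted p = 0.990), and 0.06 without both libraries.

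**Figure D2:**
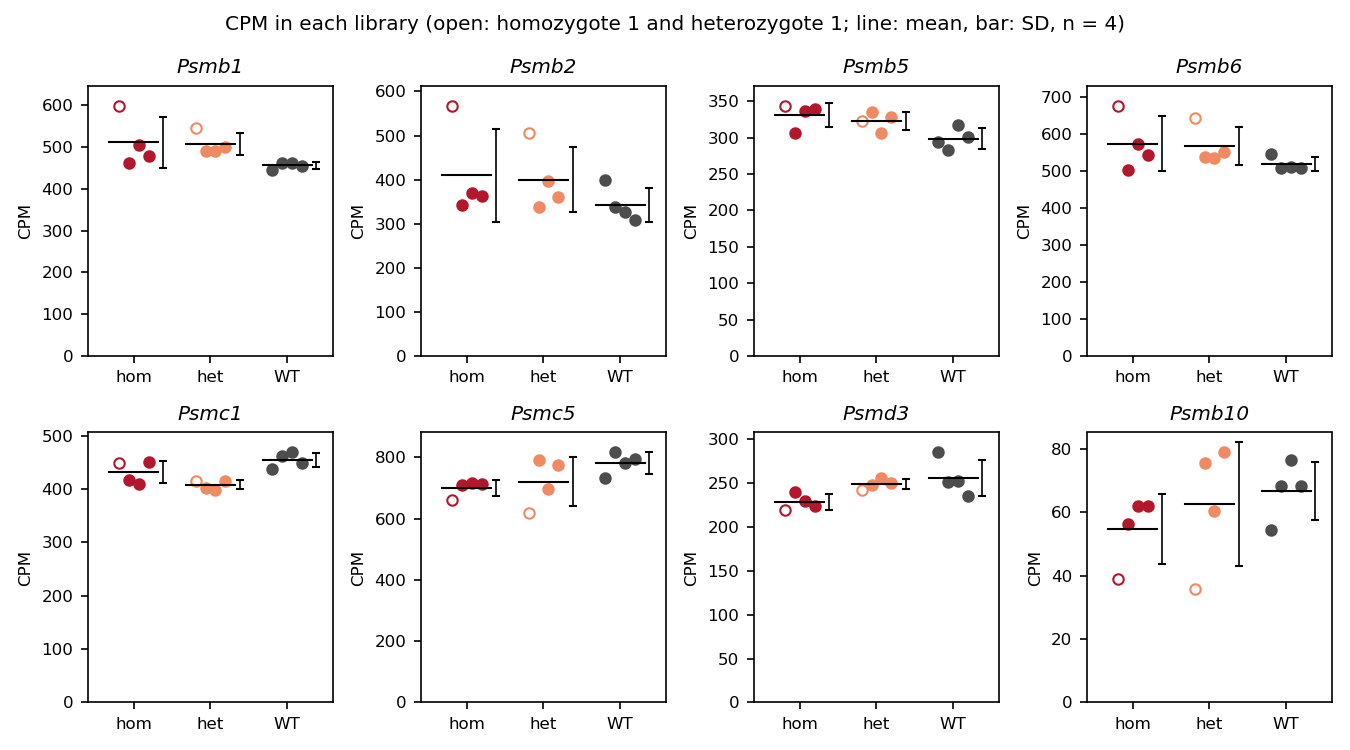
CPM of 8 genes in each library, homozygotes (hom), heterozygotes (het) and wild type (WT) from left to right, with the mean as a line and the SD as a bar (n = 4 each). Open points are homozygote 1 and heterozygote 1: they are the highest points of Psmb1, Psmb2 and Psmb6 and the lowest of Psmc5 and Psmb10.

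Promoter windows are shown for the catalytic genes Psmb5 and Psmb6 and for Psmb10, the immune form of Psmb7. Psmb6 was above and Psmb10 below all other libraries in both homozygote 1 and heterozygote 1. Psmb5 was highest in homozygote 1 but not in heterozygote 1. These windows do not stand for all genes that differed in these libraries. The 250 bases before each start are from RefSeq on GRCm38.p6, 5′ to 3′ on the strand of the gene, with matches to the searched motifs in capitals. The windows are chr14:54617996-54618245 (minus strand) for Psmb5, chr11:70525107-70525356 (plus strand) for Psmb6 and chr8:105938393-105938642 (minus strand) for Psmb10.
Psmb5: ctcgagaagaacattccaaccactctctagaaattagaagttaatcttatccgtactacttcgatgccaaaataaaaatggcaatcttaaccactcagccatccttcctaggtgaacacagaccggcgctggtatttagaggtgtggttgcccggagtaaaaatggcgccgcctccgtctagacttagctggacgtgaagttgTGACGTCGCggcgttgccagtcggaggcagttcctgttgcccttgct
Psmb6: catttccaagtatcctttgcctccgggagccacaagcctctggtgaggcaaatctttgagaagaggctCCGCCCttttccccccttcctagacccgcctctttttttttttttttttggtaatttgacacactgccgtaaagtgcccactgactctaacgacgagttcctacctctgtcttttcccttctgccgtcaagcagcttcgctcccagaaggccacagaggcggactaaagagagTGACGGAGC
Psmb10: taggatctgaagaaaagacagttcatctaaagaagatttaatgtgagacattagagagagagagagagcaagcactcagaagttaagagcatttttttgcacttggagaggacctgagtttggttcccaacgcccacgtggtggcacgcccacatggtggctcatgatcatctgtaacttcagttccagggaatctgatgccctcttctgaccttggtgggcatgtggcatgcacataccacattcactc

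The Psmb5 window held TGACGTCGC, which begins 47 bases before the start, and the Psmb6 window TGACGGAGC, 9 bases before it. Both match TGACNNNGC, the core of the antioxidant response element that binds the stress factors of the Nrf family, the known regulators of proteasome genes. Psmb6 also held CCGCCC, the reverse complement of the Sp1 box GGGCGG, 182 bases before the start. The Psmb10 window matched none of the 5 motifs searched. A window was found for 40 of the 48 members and for 25 of the 31 core and cap genes, and both strands were searched, with the 32851 windows of the table as background. TGACNNNGC was in 4 of 25 core and cap windows (16%) and in 10.2% of all windows, the other core and cap genes with it being Psmc6 and Psmd12. GGGCGG was in 14 of 25 (56%) and 32.7% of all, CCAAT, the NF-Y box, in 10 of 25 (40%) and 33.8% of all, and TATAAA, the TATA box, in 3 of 25 (12%) and 12.4% of all. TTCNNNGAA, the site of interferon-activated factors, was in 0 of 25 core and cap windows and 7.02% of all, and among the 40 members in Psmb8 and Psmg1. A match of letters is a description and does not show binding.

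The cap was close to wild type with all libraries, and most of its genes lay slightly below wild type without homozygote 1 and heterozygote 1. Of its 17 genes, 10 had a log2 difference above 0 in homozygotes and 8 in heterozygotes against wild type, with medians of 0.01 and -0.01. Without homozygote 1 and heterozygote 1, 4 and 5 of 17 were above 0, with medians of -0.05 and -0.03. Summed cap CPM was 6103, 5535, 5421 and 5743 in homozygotes, 6078, 5720, 5409 and 5614 in heterozygotes and 6001, 5957, 5544 and 5646 in wild type, and the genotypes overlapped throughout. Among the 6 ATPases 2 were above 0 in homozygotes and 3 in heterozygotes, and among the 8 lid genes 7 and 5. Without homozygote 1 and heterozygote 1 these were 1 and 1 of the ATPases and 2 and 4 of the lid genes.

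Psmc5, the most abundant ATPase per length (ENSMUSG00000020708, chr11:106256154-106263120, plus strand, GRCm38), was the member whose homozygote libraries all lay below wild type. It had 662, 710, 715 and 712 CPM in homozygotes, 619, 792, 698 and 775 CPM in heterozygotes and 731, 816, 783 and 796 CPM in wild type. Heterozygotes overlapped both other genotypes, and homozygote 1 and heterozygote 1 were the lowest of all 12. Such a separation downward was seen in 2.12% of all genes for homozygotes against wild type, beside 1 of 48 members (2.08%). The log2 difference was -0.16 ± 0.08 (SE) in homozygotes and -0.12 ± 0.08 in heterozygotes against wild type (edgeR adjusted p = 0.990 and 0.999), and -0.13 and -0.05 without both libraries.

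Psmc1, another subunit of the ATPase ring (chr12:100110186-100123364, plus strand, GRCm38), was lower in every heterozygote library than in any wild type library. It had 449, 418, 410 and 451 CPM in homozygotes, 416, 403, 399 and 415 CPM in heterozygotes and 439, 461, 469 and 449 CPM in wild type. Homozygotes overlapped both other genotypes. This separation downward was seen in 1.76% of all genes for heterozygotes against wild type. The log2 difference was -0.15 ± 0.06 (SE) in heterozygotes against wild type (edgeR unadjusted p = 0.0207, adjusted p = 0.999) and 0.08 ± 0.06 in homozygotes against heterozygotes (adjusted p = 1.00). Without heterozygote 1 and homozygote 1 the first was -0.16.

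Psmd3, a scaffold of the lid (ENSMUSG00000017221, chr11:98682554-98695979, plus strand, GRCm38), had the smallest unadjusted p of the members in homozygotes against wild type, 0.0339 by edgeR. It had 219, 240, 230 and 224 CPM in homozygotes, 242, 248, 256 and 251 CPM in heterozygotes and 285, 251, 253 and 236 CPM in wild type. Every homozygote library lay below every heterozygote library, a separation seen in 0.998% of all genes, while wild type 4 lay among the homozygotes. The opposite, every homozygote library above every heterozygote library, was seen in 0 of 48 members and 1.03% of all genes. The log2 difference was -0.17 ± 0.07 (SE) in homozygotes against wild type and -0.13 ± 0.07 against heterozygotes (edgeR adjusted p = 0.990 and 1.00). It was -0.14 and -0.12 without the libraries that stood apart. Psmd2, the large scaffold of the base that docks ubiquitin carriers, was the remaining cap gene among those of smallest p, at 435 ± 51.5 CPM in heterozygotes and 473 ± 60.8 CPM in wild type (SD, n = 4 each, log2 difference -0.12 ± 0.11 SE, and -0.20 without the libraries that stood apart).

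The ratio of cap to core was lower in every mutant library than in wild type, narrowly in homozygote 2. This ratio was chosen after values were seen and is given with no test. The ratio of summed cap to summed core CPM was 1.02, 1.17, 1.10 and 1.14 in homozygotes, 1.09, 1.16, 1.11 and 1.10 in heterozygotes and 1.22, 1.24, 1.17 and 1.21 in wild type. The nearest libraries were homozygote 2 and wild type 3, which differed only in the fourth digit (1.1732 and 1.1737). With Psmc5 left out of the cap homozygotes and wild type overlapped, as they did with the ATPases alone in place of the cap. With the lid alone, or with a mean of log2 CPM in place of the sum, both mutant genotypes overlapped wild type. Without homozygote 1 and heterozygote 1 the ratio averaged 1.14 ± 0.04 in homozygotes (SD, n = 3), 1.13 ± 0.03 in heterozygotes (n = 3) and 1.21 ± 0.03 in wild type (n = 4). Within the core, beta ring CPM per alpha ring CPM was 1.22 ± 0.07 in homozygotes, 1.23 ± 0.04 in heterozygotes and 1.16 ± 0.04 in wild type (SD, n = 4 each), and the genotypes overlapped.

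**Figure D3:**
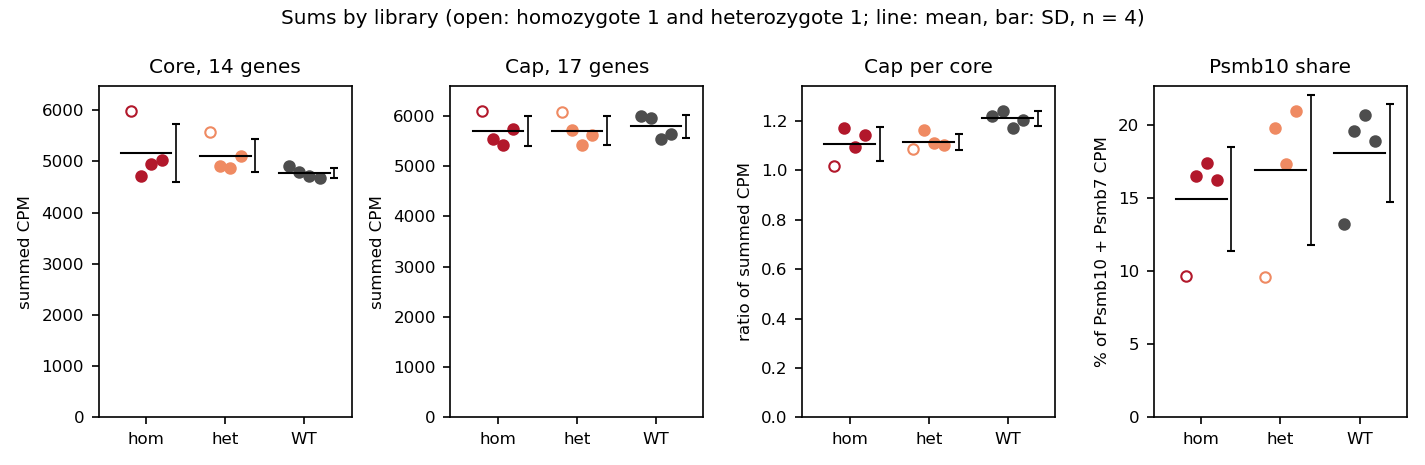
Summed CPM of the 14 core genes and the 17 cap genes, their ratio, and the share of Psmb10 in the CPM of Psmb10 and Psmb7, by library, with homozygotes, heterozygotes and wild type from left to right (line, mean; bar, SD, n = 4). The ratio of cap to core is lower in all mutant libraries than in wild type, by a margin only in the fourth digit for homozygote 2. It was chosen after values were seen, and homozygotes overlap wild type when Psmc5 is left out. The open points of homozygote 1 and heterozygote 1 have the lowest Psmb10 shares.

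The assembly factors had a lower median level than any group of core or cap subunits, and none passed the test. Psmg1 and Psmg2, which pair to start the alpha ring, had 22.4 ± 2.24 and 61.6 ± 11.1 CPM per kilobase, and Psmg3 and Psmg4, the other such pair, 73.9 ± 11.0 and 28.7 ± 5.41 (SD, n = 12 each). The chaperones of the cap base, Psmd5, Psmd9 and Psmd10, had 34.5 ± 4.45, 24.5 ± 2.42 and 36.0 ± 3.31 CPM per kilobase. Of these 7 genes, 5 had a log2 difference above 0 in homozygotes and 5 in heterozygotes against wild type, and 3 and 5 without both libraries that stood apart. Psmg4 had 17.5, 11.1, 15.5 and 15.9 CPM in homozygotes, 15.0, 21.1, 16.4 and 20.5 CPM in heterozygotes and 11.7, 15.3, 13.7 and 16.9 CPM in wild type. Heterozygotes were the highest group but overlapped both others, with a log2 difference of 0.34 ± 0.19 (SE) against wild type and of -0.28 ± 0.19 for homozygotes against heterozygotes (edgeR adjusted p = 0.999 and 1.00). Without heterozygote 1 and homozygote 1 these were 0.43 and -0.45. Psmd5 differed by -0.17 ± 0.12 between homozygotes, at 144 ± 18.7 CPM, and heterozygotes, at 162 ± 23.2 CPM.

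Psmg2 was highest in homozygote 1, at 94.1 CPM, while the other homozygote libraries had 54.4 to 68.6 CPM, heterozygotes 50.3 to 75.1 CPM and wild type 54.5 to 62.9 CPM. Psmg3 was highest in both homozygote 1, at 82.7 CPM, and heterozygote 1, at 79.2 CPM, against 52.6 to 74.7 CPM elsewhere. Summed over the 7 assembly factors, homozygotes had 515, 403, 404 and 410 CPM, heterozygotes 496, 446, 428 and 454 CPM and wild type 420, 449, 406 and 408 CPM. The genotypes overlapped, and the same 2 libraries were highest.

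Of the alternative caps, Psme3, the nuclear activator, had the highest level at 68.9 ± 7.52 CPM per kilobase. Psme2, an interferon-induced activator with a near-identical pseudogene whose reads may be shared, had 30.1 ± 5.12, and Psme4, a large nuclear activator, 7.33 ± 0.81 CPM per kilobase (SD, n = 12 each). Psme3 had 177, 177, 147 and 192 CPM in homozygotes, 199, 189, 181 and 158 CPM in heterozygotes and 175, 218, 178 and 211 CPM in wild type. The groups overlapped, with a log2 difference of -0.17 ± 0.11 (SE) in homozygotes against wild type (edgeR adjusted p = 0.990). Psme1, the partner of Psme2, had only 0.943 to 7.25 CPM and overlaps Fam158a on the opposite strand, whose counts were 6180% of its own, so its value is uncertain. Psmf1, the proteasome inhibitor, stayed at 104 ± 3.68 CPM in homozygotes, 104 ± 5.20 CPM in heterozygotes and 100 ± 12.7 CPM in wild type (SD, n = 4 each).

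Transcripts of the immune proteasome were scarce apart from Psmb10. Psmb9, which replaces Psmb6, had 0.144 to 2.66 CPM in homozygotes, 0.254 to 1.23 CPM in heterozygotes and 0.0800 to 1.57 CPM in wild type. Psmb8, which replaces Psmb5, reached at most 2.25 CPM, and its 0 counts in homozygote 1 allow up to 0.0435 CPM. Both overlap other genes (Tap1 and Gm20496), so part of these counts may not be theirs, and the floor covers counting error only. The testis alpha subunit Psma8 was at 0 counts in homozygote 1, heterozygote 3 and wild type 2, which allows up to 0.0435, 0.0450 and 0.0480 CPM, and reached 3.93 CPM in wild type 4. None of these 3 genes gave a usable comparison of genotypes.

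Psmb10 was the immune form at a level well above these, at 46.8 ± 10.4 CPM per kilobase against 0.652 ± 0.561 for Psmb9 and 0.499 ± 0.415 for Psmb8 (SD, n = 12 each). It had 38.8, 56.2, 61.9 and 61.8 CPM in homozygotes, 35.9, 75.4, 60.4 and 78.8 CPM in heterozygotes and 54.3, 68.3, 76.3 and 68.1 CPM in wild type. Homozygote 1 and heterozygote 1 were below all other libraries, and the remaining libraries of the 3 genotypes overlapped. Its share in the summed CPM of Psmb10 and Psmb7, not scaled for length and so compared between libraries only, was 9.69% in homozygote 1 and 9.60% in heterozygote 1, against 13.2 to 21.0% in the other 10. The microglial markers summed to 30.1 and 22.9 CPM in these libraries, within the 15.9 to 38.1 CPM of the others. The 6 lymphoid and antigen-presenting markers summed to 0.102 to 1.93 CPM in homozygotes, 0.175 to 1.55 CPM in heterozygotes and 0.535 to 1.84 CPM in wild type, with Ptprc at no more than 0.016 CPM in any library. The 7 astrocyte markers summed to 640 and 559 CPM in homozygote 1 and heterozygote 1, against 911 to 1548 CPM elsewhere. Only 1 of these 7, Aldoc, was below all other libraries in both, at 511 and 467 CPM against 791 to 1281 CPM. The 3 excitatory interneuron markers summed to 4.52 and 0.563 CPM, against 160 to 323 CPM, and only 1 of them, Slc17a6, was below all others in both. What part other cells had in Psmb10 was not tested.

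Many core and lid genes were highest in homozygote 1 and heterozygote 1. These libraries were set apart by cell type markers, not by the members. Of 48 members, 18 (37.5%) were higher in both than in any other library, where 10.3% of all genes were, and 3 (6.25%) were lower in both, where 10.6% of all genes were. The 18 were 5 of 7 beta ring genes, 3 of 7 alpha ring genes, 3 of 6 ATPases, 6 of 8 lid genes and 1 of 7 assembly factors, but 0 of 3 other base genes and 0 of 4 activators. The 3 lower ones were Psmb10, Psmb8 and Psmc5. Relative to the mean of the other 10 libraries, on the log2 scale of CPM, Psmb2 was 0.68 higher in homozygote 1 and 0.52 higher in heterozygote 1, Psmb3 0.49 and 0.34 higher, and Psmb10 differed by -0.77 and -0.88. What part the scarcity of interneuron RNA had in these values was not tested.

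**Figure D4:**
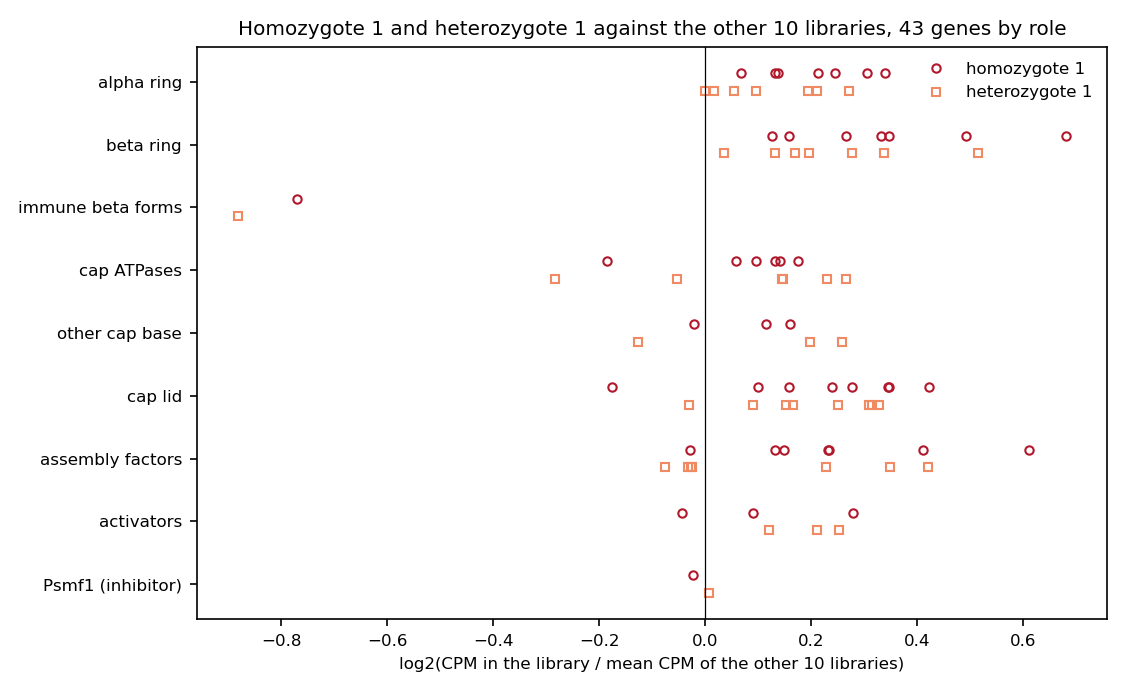
Log2 ratio of CPM in homozygote 1 (circles) and heterozygote 1 (squares) to the mean CPM of the other 10 libraries, for 43 genes grouped by role, with Psma8, Psmb8, Psmb9, Psme1 and Psmc3ip not drawn. Beta ring and most lid genes lie to the right of 0 in both libraries, Psmb2 furthest at 0.68 and 0.52, and Psmb10 lies to the left at -0.77 and -0.88.

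Core and cap transcripts varied little between libraries. The coefficient of variation over 12 libraries had a median of 8.14% for the 31 core and cap genes and 9.74% for all 48 members, beside 26.2% for all genes tested, which include many of low count. Without homozygote 1 and heterozygote 1 these medians were 5.93%, 7.33% and 22.9%. Psma3, a subunit of the alpha ring, varied least at 3.80%, with 312 ± 10.3 CPM in homozygotes, 307 ± 8.95 CPM in heterozygotes and 295 ± 9.97 CPM in wild type (SD, n = 4 each). Psma8 varied most at 128%, on few counts. Psma4, also of the alpha ring, and Psmc3ip completed the genes of smallest p in homozygotes against heterozygotes, at 156 ± 15.7 and 7.03 ± 1.69 CPM in homozygotes and 145 ± 9.75 and 5.97 ± 1.13 CPM in heterozygotes (SD, n = 4 each).

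**Figure D5:**
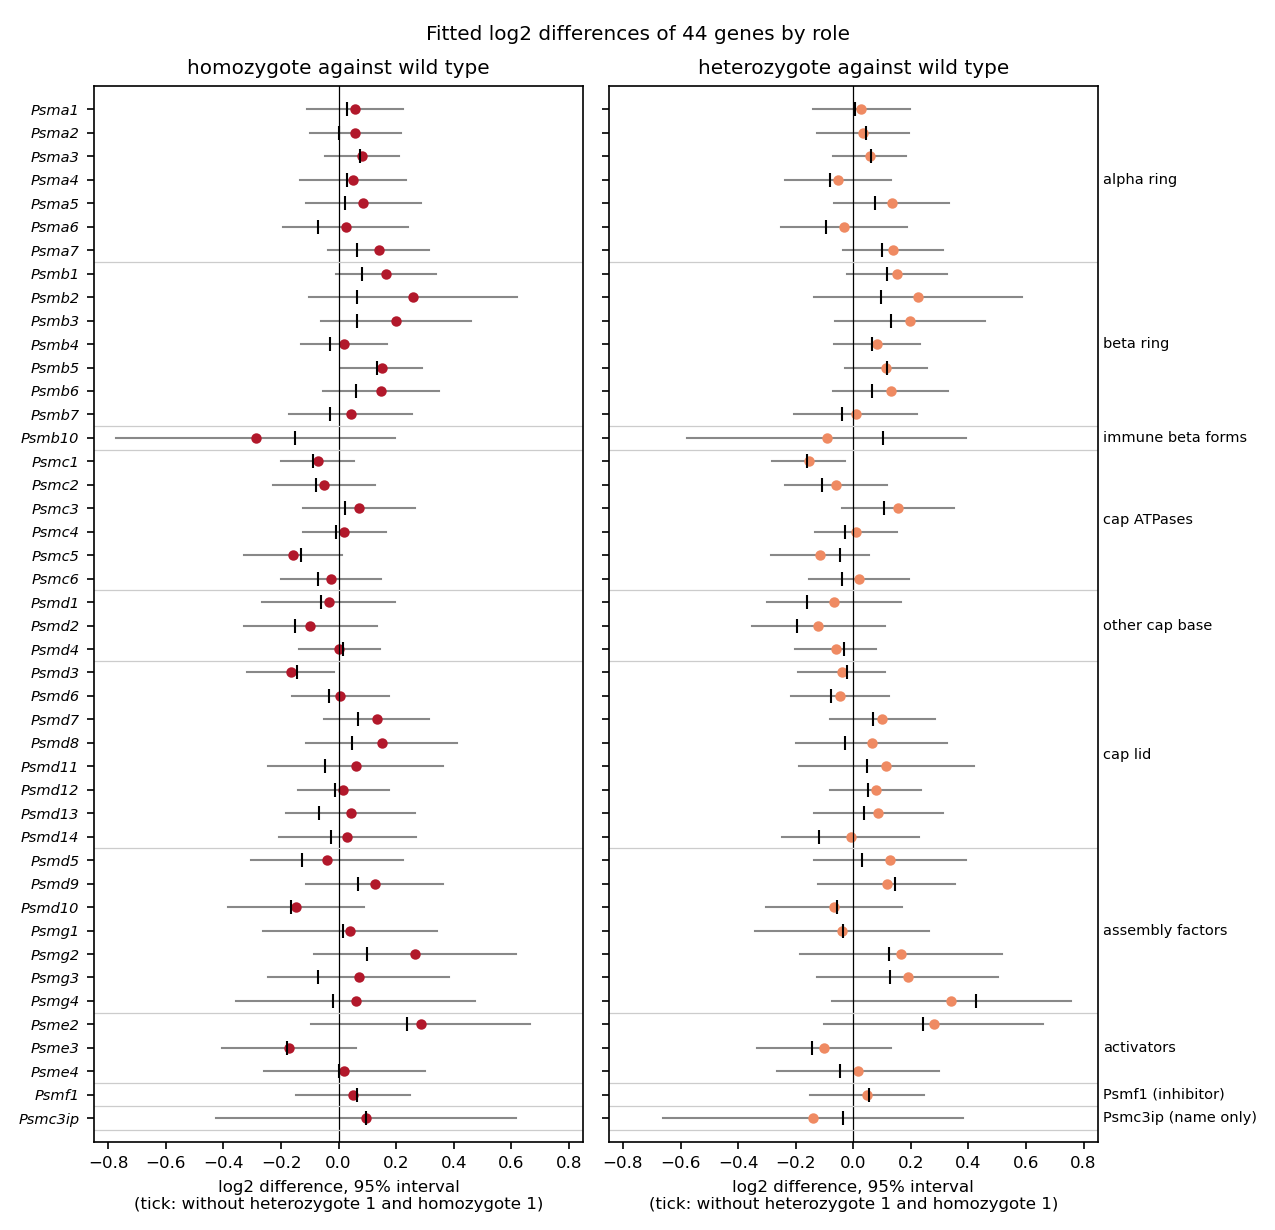
Fitted log2 differences with 95% intervals for 44 genes by role, homozygotes against wild type on the left and heterozygotes against wild type on the right, with ticks for the fit without homozygote 1 and heterozygote 1. Psma8, Psmb8, Psmb9 and Psme1 are not drawn because of their few counts. The intervals of Psmd3 and Psmb5 on the left and of Psmc1 on the right leave out 0, all beta ring points lie above 0, and most ticks of the core and lid lie nearer to 0 or below it.

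The wider ubiquitin and proteasome network was read from 39 genes, 34 of which were in the table and tested. In homozygotes against wild type 0 rose and 1 fell by the adjusted p, the only 1 of all 16338 genes tested to pass (0.00612%). The list was chosen with earlier results of these data known, so this count is a description. The gene that fell was Spop, an adaptor that brings substrates to a ubiquitin ligase, at 108 ± 6.33 CPM in homozygotes and 164 ± 6.22 CPM in wild type (SD, n = 4 each, log2 difference -0.61 ± 0.07 SE, edgeR adjusted p = 0.0192), with no overlap. The call was lost when any 1 wild type library, heterozygote 3 or 4, or homozygote 1, 3 or 4 was left out, and the adjusted p ran up to 0.263 over the alternatives. Heterozygotes lay between at 129 ± 5.76 CPM (-0.35 ± 0.07 against wild type, edgeR adjusted p = 0.999, though called by DESeq2 at an adjusted p of 0.00102), and by edgeR 0 of 34 passed in heterozygotes against wild type or homozygotes against heterozygotes. The median log2 difference of the 34 was -0.01 in homozygotes and -0.02 in heterozygotes against wild type, and -0.06 and -0.06 without homozygote 1 and heterozygote 1. Adrm1, the ubiquitin receptor of the cap that does not carry a Psm symbol, had 158 ± 4.55 CPM in heterozygotes and 138 ± 11.7 CPM in wild type (0.19 ± 0.08, adjusted p = 0.999). The ubiquitin gene Ubb had 3533 ± 247 CPM in heterozygotes and 3207 ± 138 CPM in wild type (SD, n = 4 each) and did not pass either. Ubb was above all other libraries in homozygote 1 and heterozygote 1 (4192 and 3901 CPM, against 3037 to 3470 CPM). Pomp, which matures the core, had 401 ± 53.2 CPM in homozygotes, 388 ± 31.1 CPM in heterozygotes and 369 ± 14.2 CPM in wild type, and was above all other libraries in homozygote 1 and heterozygote 1 (471 and 433 CPM, against 344 to 404 CPM).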

How the data were processed

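Per the labels, cDNA from laser-captured cells was made with the SMART-seq v4 kit and libraries with Nextera XT, kits without molecular identifiers or strand information. The authors deposited raw counts per gene. Per the submitters' processing notes, they used Trim Galore 0.4.3, HISAT2 2.0.5 and genome build GRCm38. Which program, annotation and strand setting were used for counting is not given in the sources used here. Genes on opposite strands can therefore share reads, and 14 of 48 members overlap another entry: for Psmc3ip, Psmb9 and Psmb8 the partner's counts were 1140%, 143% and 87.6% of their own.

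In R 4.3.3, filterByExpr of edgeR 4.0.16 kept 16338 genes. TMM scaling was applied (factors 0.940 to 1.03), and counts were fitted over all 12 libraries with 3 genotypes by glmQLFit with robust estimation. Tests were two-sided quasi-likelihood tests with Benjamini-Hochberg adjustment over all genes tested and a threshold of 0.05. The fit was also run on counts simulated from its own estimates of spread. No library was set apart in them, so that run does not bear on homozygote 1 and heterozygote 1. Lengths are those of GENCODE M21 principal transcripts. A count of 0 was read as allowing up to 3 counts. Alternatives were DESeq2 1.42.0, limma-voom (limma 3.58.1) with quality weights, other scaling and filters, a replicate block and libraries left out. No library was a repeat of another of its genotype (chi-square over degrees of freedom at least 61.0).

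The members and lists were chosen with earlier results of these data known. Named were the catalytic, immune, regulator and assembly genes, the 3 members of smallest p in each direction of each comparison, members whose genotypes do not overlap, the highest and lowest per role, the most and least variable, the wider genes that passed or had the 4 smallest p, and Tardbp. A gene of the wider list that this rule names is not reported here. Psmb2, Psmb3 and Pomp fall outside this rule and were chosen after their values were seen.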

Additional observations from a re-analysis of the deposited data

Results flagged for a closer look

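A library far from the other 3 of its genotype was found in 8 of 144 sets of 4 values (48 genes in 3 genotypes), or 5.56%, where chance gives about 1 in 20. In 3 of them the library was homozygote 1 or heterozygote 1. Psmb2 was at 567 CPM in homozygote 1, against 342.4 to 368.8 CPM in the other homozygotes. Psmc5 was low there, at 662 CPM against 709.7 to 715.4 CPM. Psmb6 was at 645 CPM in heterozygote 1, against 535.8 to 551.3 CPM in the other heterozygotes. Wild type 1 was high in Psmb6, at 547 CPM against 507.3 to 512.4 CPM, and in Psmb7, at 356 CPM against 280.5 to 292.8 CPM. Its summed motor neuron markers were the highest of the wild type libraries, at 7852 CPM. Psma2 was at 410 CPM in heterozygote 4, against 375.9 to 381.1 CPM. In genes of few counts, Psmb9 was at 2.66 CPM in homozygote 3, against 0.144 to 0.5076 CPM, and Psma8 at 3.93 CPM in wild type 4, against 0 to 0.635 CPM.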

How the results depend on the processing

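The count of members that passed was 0 in each comparison under each alternative run: DESeq2, limma-voom with quality weights, DESeq2 size factors, no filter, a mean of at least 5 CPM, a replicate block, only the 8 libraries compared, and each library left out. The members' median log2 difference ran from -0.01 to 0.07 in homozygotes against wild type, 0.03 to 0.07 in heterozygotes against wild type and -0.04 to 0.04 in homozygotes against heterozygotes, with the lowest of the first when homozygote 1 and heterozygote 1 were left out together. All named differences of single members kept their sign. The deviations of same-numbered libraries correlated at 0.106 to 0.454 for number 1 and at -0.0528 to 0.0977 for the other numbers. The labels do not tie a number to an animal, batch or day, so the numbers were not taken to pair the libraries, although replicate 1 had the highest summed motor neuron markers in each genotype (10941, 11004 and 7852 CPM in homozygotes, heterozygotes and wild type). With the replicate block 0 members passed, and the medians were 0.04 in homozygotes and 0.03 in heterozygotes against wild type. Over all genes, edgeR called 1, 0 and 0 in homozygotes against wild type, heterozygotes against wild type and homozygotes against heterozygotes, DESeq2 31, 27 and 17, and for any genotype difference edgeR 0 and DESeq2 16. The block called 6 in homozygotes against wild type. Spop no longer passed in homozygotes against wild type in 11 of 20 alternatives, among them leaving out any wild type library (log2 difference -0.58 to -0.62). Depth limits Psma8, Psmb8, Psmb9 and Psme1, which had few counts.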
